A study of Homo sapiens with 12 samples.

Results

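Mediator is the large coactivator complex that links DNA-bound transcription factors to RNA polymerase II. Its members were chosen by gene symbol: every gene named MED followed by a number, the paralogs MED12L and MED13L, and the kinase subunits CDK8, CDK19 and CCNC. The rule found 33 genes among the 58735 human genes of the count table, and it used no measured value. All 33 passed the filter of the RNA-seq test, which needs a count of 10 or more in at least 3 of the 6 RNA-seq libraries.

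The complex is usually described in parts. The head and the middle form the core that contacts RNA polymerase II and the general transcription factors, MED14 is the scaffold that holds the parts together, and the tail carries surfaces for activators. A separable kinase module, made of cyclin C, CDK8 or CDK19, MED12 or MED12L and MED13 or MED13L, binds the core reversibly. By this scheme 7 members belong to the head (MED6, MED8, MED11, MED17, MED18, MED20 and MED22), 9 to the middle (MED1, MED4, MED7, MED9, MED10, MED19, MED21, MED26 and MED31), 1 is the scaffold, 5 belong to the tail (MED15, MED16, MED23, MED24 and MED25) and 7 to the kinase module. MED27, MED28, MED29 and MED30 are placed in the head or in the tail by different schemes and were kept as a set of 4.

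The cells were 293T, a human embryonic kidney line, transduced with a lentiviral LT3REVIR construct that expresses 4EBP1-4A under doxycycline. 4EBP1 is a repressor of cap-dependent translation, and in 4EBP1-4A the residues whose phosphorylation inactivates it are alanine. Both groups carried the construct, and the transduced cells had been sorted for GFP; whether a clone was derived is not given in the sources used here. One group received DMSO and the other doxycycline at 2 mg/ml, for 12 h by the methods and the labels, for 2 h by the text of the series and for a longer time by the results text of the study. No cells without the construct were treated, so an effect of doxycycline itself and one of 4EBP1-4A cannot be told apart. RNA-seq of total RNA and Ribo-seq, which counts mRNA fragments protected by ribosomes, were each done on 3 replicates a group, which gives 12 libraries. The study calls the replicates biological but the sources do not say whether they were separate cultures, so the p-values measure the spread between these samples only.

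Reads on genes numbered 51519700 to 57824136 per RNA-seq library in the DMSO group and 21687906 to 47862104 in the doxycycline group. Doxycycline replicate 3 stood apart. Of its deposited counts 5.95% lay on genes, against 19.7% to 30.8% in the other 5 libraries, and 88.4% had no unique alignment. That last share was 54.9% to 62.3% in the DMSO libraries and 65.4% and 69.9% in doxycycline replicates 1 and 2, so it also separated the groups without replicate 3, and its part in the results was not tested. The fitted changes of the members are therefore given with and without that library. Whether a read with several alignments entered these shares once is not given in the sources used here. EIF4EBP1, the gene of the induced protein, checked the labels. Its level was 156, 157 and 169 CPM with DMSO and 260, 281 and 267 CPM with doxycycline, with no overlap. Its log2 fold change of 0.75 did not pass edgeR's test over the 6 libraries (adjusted p = 0.326). Without doxycycline replicate 3 it was also 0.75 and passed (edgeR adjusted p = 1.2e-05). CPM, the usual depth-scaled count, relates a gene's reads to all reads on genes of its library, scaled by edgeR's TMM factors. All 7 markers of 293T cells were detected, with a summed level of 990 to 1079 CPM with DMSO and 1112 to 1352 CPM with doxycycline. Most of that sum was VIM, at 770 to 825 CPM with DMSO and 817 to 923 CPM with doxycycline. PAX2 was lowest, at 1.28 to 1.92 CPM with DMSO and 2.35 to 4.18 CPM with doxycycline. Of the markers of other cells, KRT5 and KRT14 of keratinocytes had 0 reads in every RNA-seq library, and the summed lists of blood cells and hepatocytes were at most at 0.256 and 0.552 CPM. The 4 fibroblast markers summed to 9.89 to 11.7 CPM with DMSO and 11.1 to 24.5 CPM with doxycycline, most of it COL1A1, with COL1A2 and DCN at most at 0.118 CPM. LUM, the other of the 4, went the opposite way, at 1.33 to 1.58 CPM with DMSO and 0.276 to 0.907 CPM with doxycycline. KRT10 was at 5.08 to 5.73 CPM with DMSO and 2.21 to 4.94 CPM with doxycycline, and the part of these markers in the results was not tested.

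The kinase module is the one place where 2 human genes stand for 1 subunit, and the values below count the copies separately. The first 30 coding bases of each pair are shown because they let the copies be compared directly; capitals mark the bases that differ within a pair, read 5′ to 3′ from the coding strand of GRCh38.
MED12, X:71118755-71118784, + strand: atggcGgccttcgggAtCTtGagctaCgaA
MED12L, 3:151086927-151086956, + strand: atggcCgccttcgggCtTCtCagctaTgaG
MED13, 17:62065176-62065205, - strand: atgaGtgcCTcCTTCGTGCCgAACgGgGCc
MED13L, 12:116277102-116277131, - strand: atgaCtgcGGcAGCGAACTGgGTGgCgAAc
CDK8, 13:26254642-26254671, + strand: atggaCtatgaCttTaaAgTgaagctgAGC
CDK19, 6:110815107-110815136, - strand: atggaTtatgaTttCaaGgCgaagctgGCG
Compared position by position from the start codon, without gaps, MED12 and MED12L differed at 7 of the 30 bases. CDK8 and CDK19 differed at 8, and MED13 and MED13L at 18. Bases that match only after a shift count as different here, so these counts do not rank the pairs by likeness. Over the whole reference transcripts of GENCODE release 44, the longest run of bases shared within a pair was 21 for MED12, 20 for MED13 and 19 for CDK8. No stretch of 30 bases occurred in both copies of any pair. The table also lists 21 pseudogenes named after members, of which MED28P1 held the most RNA-seq reads, 90 over the 6 libraries against 36802 for MED28.

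Level per kilobase with DMSO spanned a 14.1-fold range over the 33 mRNAs. MED8, a head subunit, was highest at 21.8 ± 1.06 CPM per kilobase of exon (SD, n = 3), followed by MED13 of the kinase module at 20.5 ± 1.37. MED17, a large head subunit, was lowest at 1.55 ± 0.137, below MED26 at 2.23 ± 0.142, the middle subunit known for binding elongation factors. Other genes on the same strand share 12.98% of the exon bases of MED17 and 42.0% of those of MED26, so these levels are uncertain. The median member was at 7.65 CPM per kilobase, against 2.70 for the median gene tested. Most neighbours in this order could not be told apart: in 8 of 32 neighbouring pairs the 3 DMSO libraries of the higher gene all lay above those of the lower one, MED13 above MED24 and MED12L above MED26 among them. MED15 ranked in the lower part of the order with DMSO, at 6.11 ± 0.410, and reached 9.30 ± 1.33 with doxycycline.

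The order rests on the length used. With the longest annotated transcript in place of all exons together, CCNC moved to the top at 40.4 CPM per kilobase and MED26 to the bottom at 3.07, and the rank correlation of both orders was 0.84 (Spearman's rho over the 33 members, whose reads are the same in both).

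**Figure D1:**
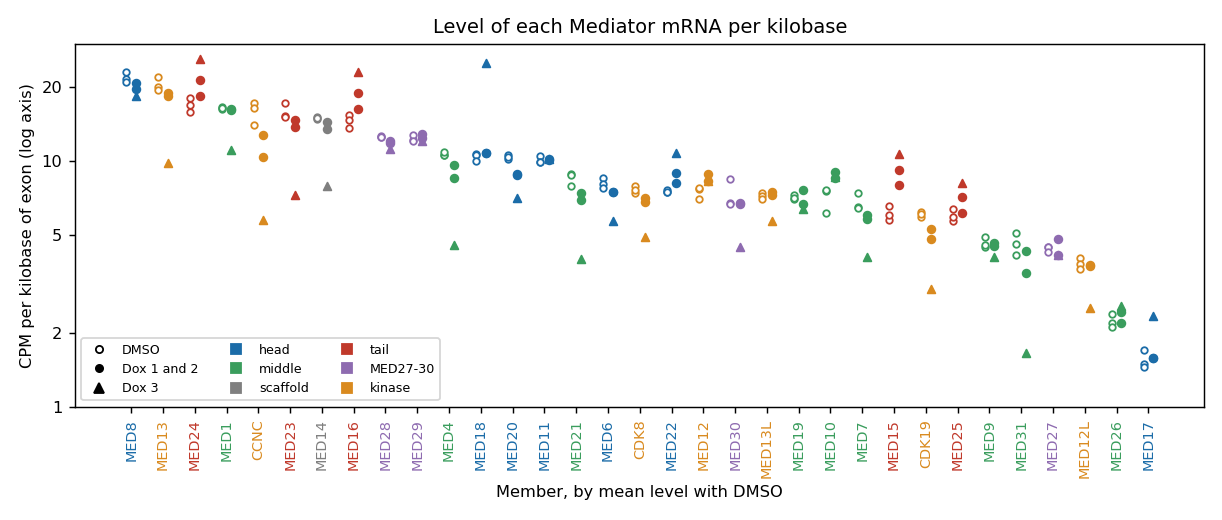
Level of each of the 33 Mediator mRNAs in each RNA-seq library, in CPM per kilobase of exon on a log axis, ordered by the mean with DMSO; colours are the modules, open points DMSO, filled points doxycycline replicates 1 and 2, triangles doxycycline replicate 3. The DMSO libraries lie close together, from MED8 at 21.8 to MED17 at 1.55, while the triangles of MED13, CCNC, MED31 and MED18 lie far from the other libraries of the same gene.

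With doxycycline the mRNA of MED15 was higher and that of CCNC, the cyclin of the kinase module, was lower, and most other members lay between them. Across the 6 libraries no member passed the test (quasi-likelihood test of edgeR, adjusted by Benjamini-Hochberg over 20552 genes), and neither did any other gene: 0 were higher and 0 lower, while 1969 genes were higher and 848 lower at an unadjusted p under 0.05. At that unadjusted threshold 5 members were higher, MED15, MED16, MED24, MED10 and MED22, which is 15.2% of the members against 9.58% of all genes. In the lower direction there were 3, CCNC, CDK19 and MED20, which is 9.09% against 4.13%. DESeq2's Wald test on the same 6 libraries called 0 members, with 1 gene higher (0.00487%) and 2 lower (0.00973%) among all.

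The groups did not overlap for 21 members. All 3 doxycycline libraries lay above all 3 DMSO libraries for 7 members (21.2%, against 17.7% of all genes) and below them for 14 (42.4%, against 20.8%). The exact permutation test, two-sided, cannot go below 0.1 with 3 libraries against 3.

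Without doxycycline replicate 3, 2 members rose and 3 fell in edgeR's test. MED15 and MED16, both tail subunits, rose, which is 6.06% of the members against 3.38% of all genes, and CCNC, CDK19 and MED20 fell, which is 9.09% against 3.99%. When the same 5 libraries were scaled by their totals, the split was 6 members higher (MED10, MED12, MED15, MED16, MED22 and MED24) and 1 lower (CCNC), and over all genes it was 1443 higher (7.02%) and 338 lower (1.64%) in place of 694 and 819. Over the 6 libraries that scaling moved the median log2 fold change of all genes from -0.04 to 0.10 and that of the members from -0.10 to 0.04. The members are more abundant than the median gene, and the part of depth in these shares was not tested.

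**Figure D2:**
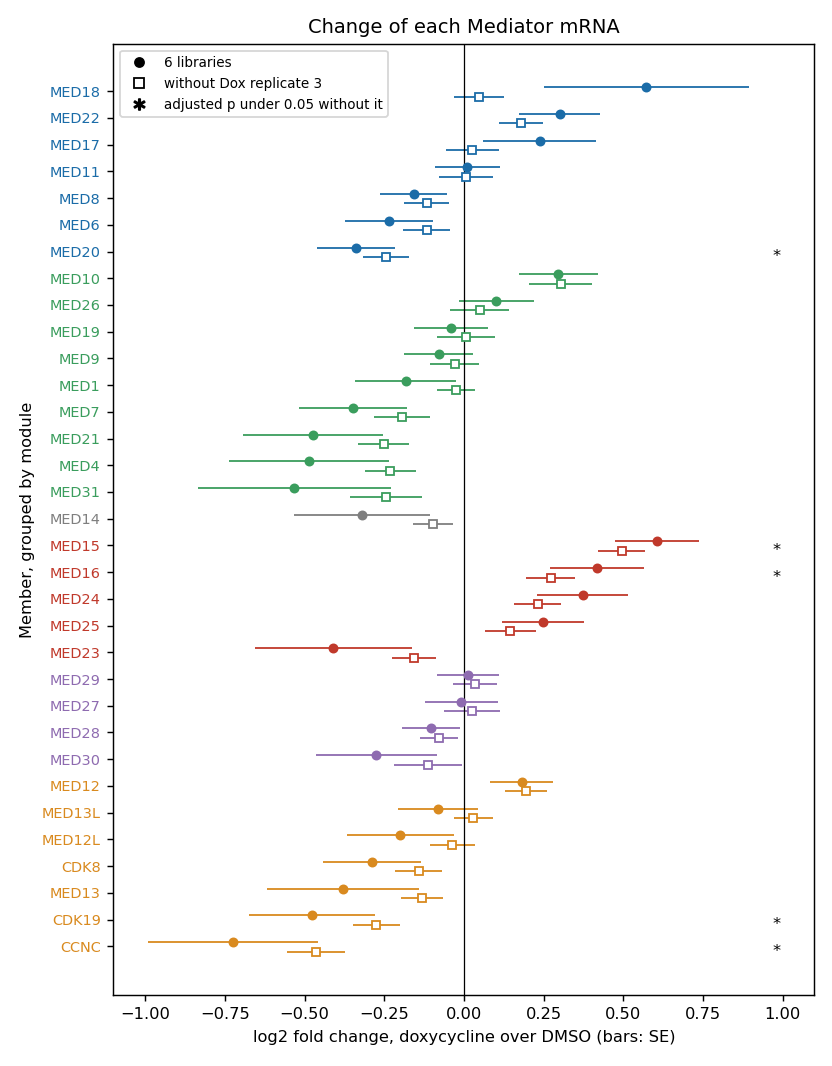
log2 fold change of each member in RNA-seq, doxycycline over DMSO, with its standard error: filled circles for all 6 libraries, open squares without doxycycline replicate 3, grouped and coloured by module. Stars mark the 5 members with an adjusted p under 0.05 in the fit without that replicate: MED20, MED15, MED16, CDK19 and CCNC.

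MED15 (ENSG00000099917), at 20495913 to 20587632 of chromosome 22 (GRCh38, + strand), has 18 exons in its reference transcript and encodes a tail subunit that activators such as the sterol-responsive SREBP factors bind. Its raw RNA-seq counts were 3260, 3572 and 3035 with DMSO and 3911, 4422 and 2808 with doxycycline. Scaled, these were 59.7, 68.0 and 62.3 CPM with DMSO and 83.2, 95.5 and 111 CPM with doxycycline. Every doxycycline library lay above every DMSO library, although the raw count of doxycycline replicate 3 was the lowest of the 6, in the shallowest library.

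The log2 fold change of MED15 was 0.61 with a standard error of 0.132, or 1.52-fold, and its adjusted p was 0.326 (edgeR's quasi-likelihood test). Without doxycycline replicate 3 it was 0.49 with a standard error of 0.0748, or 1.41-fold, and the adjusted p was 0.00430 (edgeR). Over all planned and added alternatives the log2 fold change ranged from 0.29 to 0.76 and the adjusted p from 0.000844 with limma-voom to 0.624 without DMSO replicate 1. MED15 had the highest log2 fold change of the members over the 6 libraries, where 94.3% of all genes tested had a lower one, and without doxycycline replicate 3, where 96.7% did. It was not the highest in every alternative: MED18 was above it without DMSO replicate 1 (0.59 against 0.57), doxycycline replicate 1 (0.79 against 0.71) or doxycycline replicate 2 (0.78 against 0.61). With GC content and length as offsets, described below, MED18, MED10 and MED17 were above it at 0.66, 0.54 and 0.53 against 0.29.

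Relative to the other 32 members, the log2 CPM of MED15 minus their mean log2 CPM was 0.46, 0.68 and 0.56 with DMSO and 1.003, 1.20 and 1.69 with doxycycline. This difference within a library does not depend on how libraries are scaled. The DMSO group averaged 0.56 ± 0.11 and the doxycycline group 1.30 ± 0.35 (SD, n = 3 each). Their difference of 0.73 was larger than the SD of either group. It is given without a p-value, because MED15 was chosen with earlier results of these data known. MED15 has 61.0% GC, against a median of 45.4% for the other members, and the difference was not computed with GC offsets. Without doxycycline replicate 3 the difference between the groups was 0.54. Against the other 4 tail subunits alone it was 0.47, and 0.37 without that replicate, again with no overlap between the groups.

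**Figure D3:**
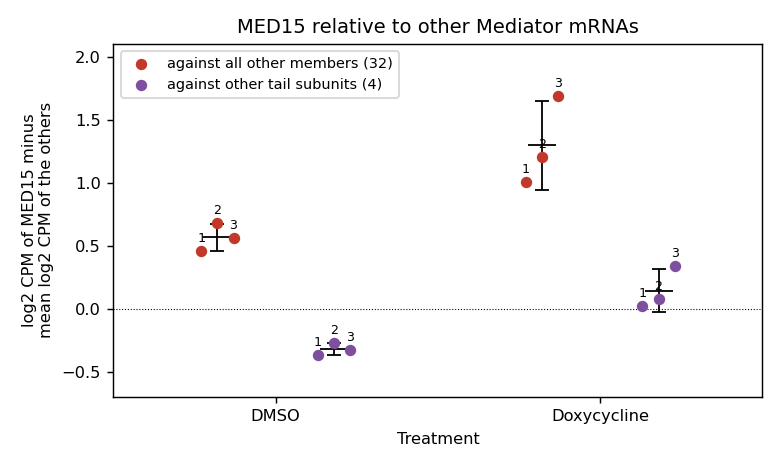
log2 CPM of MED15 minus the mean log2 CPM of the other Mediator mRNAs in each RNA-seq library, against all 32 others (red) and against the other 4 tail subunits (purple); numbers are replicates, bars the mean and SD of 3 libraries. All doxycycline points lie above all DMSO points of the same colour, and doxycycline replicate 3 is the highest, at 1.69 and 0.33.

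The other tail subunits did not all lie on the same side. MED16 was at 57.4, 65.0 and 62.0 CPM with DMSO and 68.5, 80.2 and 97.8 CPM with doxycycline, and MED24 at 110, 126 and 117 against 128, 149 and 181 CPM. Both genes had every doxycycline library above every DMSO library, MED24 by a small margin between its nearest libraries. MED25, a tail subunit bound by several activators, was at 43.9 to 49.2 CPM with DMSO and 47.4 to 62.3 CPM with doxycycline, so its groups overlapped. MED23, a subunit that links the complex to signaling from the MAP kinase pathway, went the other way: it was at 128, 114 and 112 CPM with DMSO and 109, 103 and 54.0 CPM with doxycycline.

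The log2 fold changes were 0.42 for MED16 (adjusted p = 0.326, edgeR), 0.37 for MED24, 0.25 for MED25 and -0.41 for MED23. Without doxycycline replicate 3 MED16 rose by 0.27 (edgeR adjusted p = 0.0403), while MED24 had a log2 fold change of 0.23 (edgeR adjusted p = 0.0622), MED25 one of 0.15 (edgeR adjusted p = 0.253) and MED23 one of -0.16 (edgeR adjusted p = 0.160). The median of the 5 tail subunits was 0.37 with all libraries and 0.23 without replicate 3, beside -0.04 and -0.01 for all genes. Library by library, the tail's median deviation from its DMSO mean on the log2 scale was 0.12, 0.34 and 0.62 in doxycycline replicates 1, 2 and 3, and -0.08, 0.09 and -0.02 in the DMSO libraries.

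In the kinase module 6 of the 7 members had a log2 fold change below 0 over the 6 libraries, and 5 of 7 without doxycycline replicate 3. CCNC (ENSG00000112237), on chromosome 6 from 99542387 to 99568825 on the - strand, encodes cyclin C, the partner that activates CDK8 and CDK19. Its raw counts were 5287, 4144 and 4500 with DMSO and 3371, 2687 and 819 with doxycycline, which is 96.8, 78.9 and 92.4 CPM against 71.8, 58.0 and 32.3 CPM. All doxycycline libraries lay below all DMSO libraries, with replicate 3 far below the other two.

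The log2 fold change of CCNC was -0.72 with a standard error of 0.267 (adjusted p = 0.326, edgeR), and 2.00% of all genes tested had a lower one (3.42% without doxycycline replicate 3). Without doxycycline replicate 3 CCNC fell by 0.46 with a standard error of 0.0913 (edgeR adjusted p = 0.0122). Over the alternatives its adjusted p ranged from 0.00207 with limma-voom to 0.624 without DMSO replicate 1. Exons of TSTD3 on the opposite strand cover 13.1% of the exon bases of CCNC, and since the use of strand in the counting is not stated, reads there cannot be assigned to one gene with certainty.

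CDK19, one of the alternative kinases, was at 47.6, 45.3 and 46.5 CPM with DMSO and 40.3, 36.6 and 23.1 CPM with doxycycline. CDK8, the other, was at 37.5, 35.2 and 36.0 CPM with DMSO and 33.6, 32.2 and 23.2 CPM with doxycycline. Both were lower in every doxycycline library. CDK19 had a log2 fold change of -0.48 over the 6 libraries and fell by 0.27 without doxycycline replicate 3 (edgeR adjusted p = 0.0338), while CDK8 was at -0.29, and at -0.14 without that replicate (edgeR adjusted p = 0.231).

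Per kilobase, the ratio of CDK8 to CDK19 was 1.27, 1.25 and 1.25 with DMSO and 1.34, 1.42 and 1.62 with doxycycline. The groups did not overlap (exact permutation test, two-sided, p = 0.1, the smallest possible). With the longest transcript as length the mean ratio with DMSO was 1.63 in place of 1.26, so how many CDK8 mRNAs there are for each CDK19 mRNA depends on the transcripts present.

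MED12, which activates the kinase through cyclin C, was at 121, 133 and 135 CPM with DMSO and 144, 153 and 144 CPM with doxycycline. It was higher in each doxycycline library, at a log2 fold change of 0.18 that did not pass the test (edgeR adjusted p = 0.328, and 0.0775 without doxycycline replicate 3). MED12L was at 57.8, 54.8 and 52.2 CPM with DMSO and 53.4, 53.9 and 36.1 CPM with doxycycline, so its groups overlapped. The ratio of MED12 to MED12L per kilobase averaged 1.96 ± 0.209 in the DMSO group (SD, n = 3) and was 2.23, 2.35 and 3.30 with doxycycline, without overlap.

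MED13, which ties the kinase module to the core, was at 279, 254 and 246 CPM with DMSO and 241, 234 and 124 CPM with doxycycline. The nearest libraries of both groups, at 246 and 241 CPM, lay close together, and the log2 fold change of -0.38 became -0.13 without doxycycline replicate 3 (edgeR adjusted p = 0.353 and 0.212). MED13L was at 231 to 245 CPM with DMSO and 188 to 246 CPM with doxycycline, with a log2 fold change of -0.08 that turned to 0.03 without that replicate and to 0.05 with library totals. The ratio of MED13 to MED13L per kilobase was 2.84 ± 0.105 in the DMSO group (SD, n = 3) and 2.62, 2.47 and 1.71 with doxycycline, but with the longest transcript as length it was 1.04 with DMSO, because the exons annotated for MED13L add up to far more bases than its longest transcript. Over the 7 members of the module the median log2 fold change was -0.29, and -0.13 without doxycycline replicate 3.

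In the head, MED18 had the highest log2 fold change over the 6 libraries, and it rested on 1 library. MED18, which forms a movable part of the head with MED20, was at 21.5, 21.3 and 20.2 CPM with DMSO, at 21.7 and 21.8 CPM in doxycycline replicates 1 and 2, and at 50.7 CPM in replicate 3. Its log2 fold change of 0.57 became 0.05 without replicate 3 (edgeR adjusted p = 0.333 and 0.749). In doxycycline replicate 3 MED18 stood 1.22 above replicates 1 and 2 on the log2 scale, the largest upward difference of the members. MED17 had the next at 0.56, and was at 38.7 CPM there against 24.0 to 28.3 CPM in the other 5 libraries.

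MED20, the partner of MED18, did not follow it: it was at 34.8, 33.6 and 34.1 CPM with DMSO and 28.7, 29.1 and 23.1 CPM with doxycycline, with a log2 fold change of -0.34 over the 6 libraries, and fell by 0.24 without doxycycline replicate 3 (edgeR adjusted p = 0.0489, close to the threshold of 0.05). Exons of other genes on the same strand cover 25.3% of the exon bases of MED20. MED22 was at 54.1, 55.3 and 54.1 CPM with DMSO and 59.1, 64.5 and 78.0 CPM with doxycycline, with log2 fold changes of 0.30 and, without replicate 3, 0.18 (edgeR adjusted p = 0.326 and 0.107). MED6, a conserved head subunit, and MED8 were lower in every doxycycline library, at log2 fold changes of -0.23 and -0.16, and both were at -0.12 without replicate 3. MED11 was at 0.01 in both fits. The head's median was 0.01 in both fits.

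In the middle, MED10 had the highest log2 fold change, and MED26, at 0.10 and 0.05 without doxycycline replicate 3, was the other member above 0 over the 6 libraries. MED10, a small core subunit, was at 11.5, 14.0 and 14.1 CPM with DMSO and 15.9, 16.8 and 16.0 CPM with doxycycline, a log2 fold change of 0.30 that was also 0.30 without doxycycline replicate 3 (edgeR adjusted p = 0.326 and 0.0630). MED21, which pairs with MED7 in the hinge of the middle, MED4 and MED31 had lower means with doxycycline. MED21 was at 28.9 to 32.2 CPM with DMSO and 26.8, 25.2 and 14.6 CPM with doxycycline, and MED4 at 27.3 to 28.1 against 25.0, 22.2 and 11.8 CPM. MED31 was at 10.8, 8.72 and 9.67 CPM with DMSO and 9.07, 7.36 and 3.47 CPM with doxycycline, so its groups overlapped, and its exons are covered to 58.4% by TXNDC17 on the opposite strand.

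The log2 fold changes over the 6 libraries were -0.47 for MED21, -0.49 for MED4 and -0.53 for MED31. In doxycycline replicate 3 MED31 differed from replicates 1 and 2 by -1.24 on the log2 scale, which is further than MED18 stood above them. Without that replicate the log2 fold changes were -0.25 for MED21 (edgeR adjusted p = 0.0592), -0.23 for MED4 (edgeR adjusted p = 0.0798) and -0.24 for MED31 (edgeR adjusted p = 0.179), and none passed the test. MED1, the subunit that nuclear receptors bind, was at 141, 143 and 142 CPM with DMSO and 139, 140 and 95.6 CPM with doxycycline, so that almost all of its log2 fold change of -0.18 came from replicate 3 (-0.03 without it). The other middle subunits, MED7, MED9, MED19 and MED26, had adjusted p-values of 0.171 to 0.978 in that fit (edgeR). The middle's median was -0.18, and -0.03 without replicate 3.

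MED14, the scaffold, was at 146, 143 and 144 CPM with DMSO and 140, 131 and 76.7 CPM with doxycycline, at log2 fold changes of -0.32 and, without doxycycline replicate 3, -0.10 (edgeR adjusted p = 0.370 and 0.341). MED27, MED28, MED29 and MED30 had a median log2 fold change of -0.06 as a set, and -0.03 without that replicate. MED29 was at 46.5 to 48.8 CPM with DMSO and 46.4 to 49.7 CPM with doxycycline. MED30 was at 9.63 to 12.1 CPM with DMSO and 9.66, 9.76 and 6.43 CPM with doxycycline. Placing these 4 in the tail brought the tail's median from 0.37 to 0.01, and placing them in the head brought the head's from 0.01 to -0.01.

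**Figure D4:**
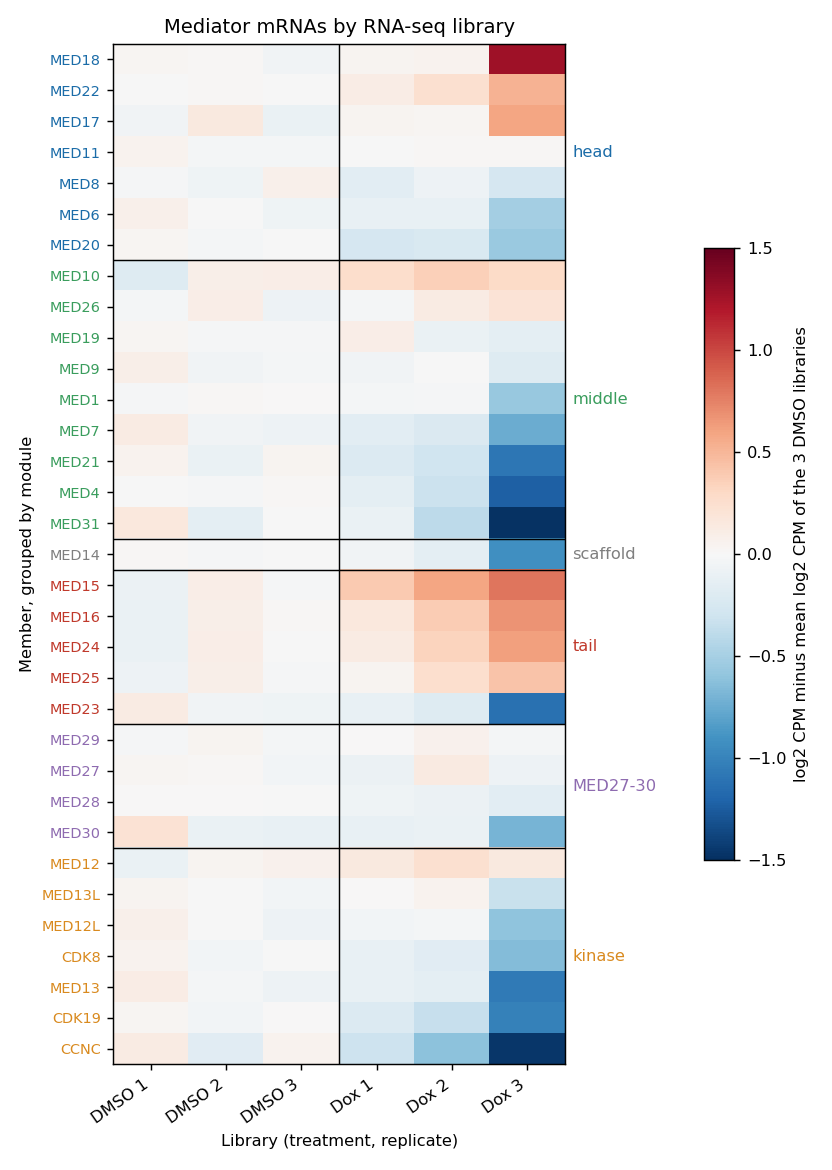
log2 CPM of each Mediator mRNA in each RNA-seq library minus its mean over the 3 DMSO libraries (red higher, blue lower), with members grouped by module and ordered by log2 fold change within it. Doxycycline replicate 3 holds the deepest colours in both directions, from MED18 at the top to CCNC at the bottom, while MED15 and MED16 are red and CCNC and CDK19 blue in all 3 doxycycline libraries.

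These differences followed a feature that the rule did not use, the share of G and C bases in the reference transcript. It ran from 35.4% in MED21 to 65.4% in MED25, with 61.0% in MED15, 65.1% in MED16 and 35.9% in CCNC. Across the 33 members the log2 fold change was higher at higher GC content, with a Pearson correlation of 0.77 and a Spearman correlation of 0.83 over the 6 libraries, and 0.76 and 0.80 without doxycycline replicate 3. Genes are not independent replicates, and all points share the same libraries. Over the 20396 tested genes with a known GC content the Pearson correlations were 0.62 and 0.45. Transcript length showed no such relation among the members, with a Pearson correlation of -0.08 over the 6 libraries.

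The 15 members under 45% GC had a median log2 fold change of -0.35 over the 6 libraries, against -0.30 for all genes in that range. The 12 members from 45% to 55% were at 0.00, against -0.01, and the 6 members at 55% or more were at 0.31, against 0.29. In each range the members thus lay near all genes of like GC content. The same order appeared in how doxycycline replicate 3 differed from replicates 1 and 2, where the Pearson correlation with GC content was 0.70 among the members and 0.68 over all genes. The tail holds 4 of the 6 members at 55% GC or more, with a median of 61.0%, and the kinase module and the middle hold AT-rich ones, with medians of 43.6% and 44.8%. MED23, the tail subunit that was lower, has 41.4%, and MED12, the kinase module subunit that was higher, has 54.7%. Not every member followed this order. Without doxycycline replicate 3, 14 of the 15 members under 45% had a negative log2 fold change, with MED17 (42.05%) at 0.03. At 55% or more, 5 of the 6 had a positive one, with MED9 (55.6%) at -0.03 and MED26 (60.7%) at 0.05. MED10, with 45.5%, was at 0.30 in both fits.

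When GC content and length were fitted as offsets in each library, the medians of the tail and of the kinase module lay closer to 0. Such offsets take out any trend of all genes with GC content, whatever its source. Smaller medians in modules with high or low GC content thus follow from the method, and the source was not tested. The tail went from 0.37 to 0.00 and the kinase module from -0.29 to -0.09 over the 6 libraries. The middle went from -0.18 to -0.03, while the head moved the other way, from 0.01 to 0.16. Without doxycycline replicate 3 and with these offsets, 5 members passed edgeR's test again, with 1.98% of all genes higher and 1.86% lower. MED15 rose by 0.33 (edgeR adjusted p = 0.00230) and MED10 by 0.40 (edgeR adjusted p = 0.0348), while CCNC fell by 0.22 (edgeR adjusted p = 0.0304), CDK19 by 0.21 (edgeR adjusted p = 0.0273) and MED20 by 0.22 (edgeR adjusted p = 0.0284). MED16, which passed without offsets, was at 0.06 with them (edgeR adjusted p = 0.454). With offsets and all 6 libraries, no member passed.

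**Figure D5:**
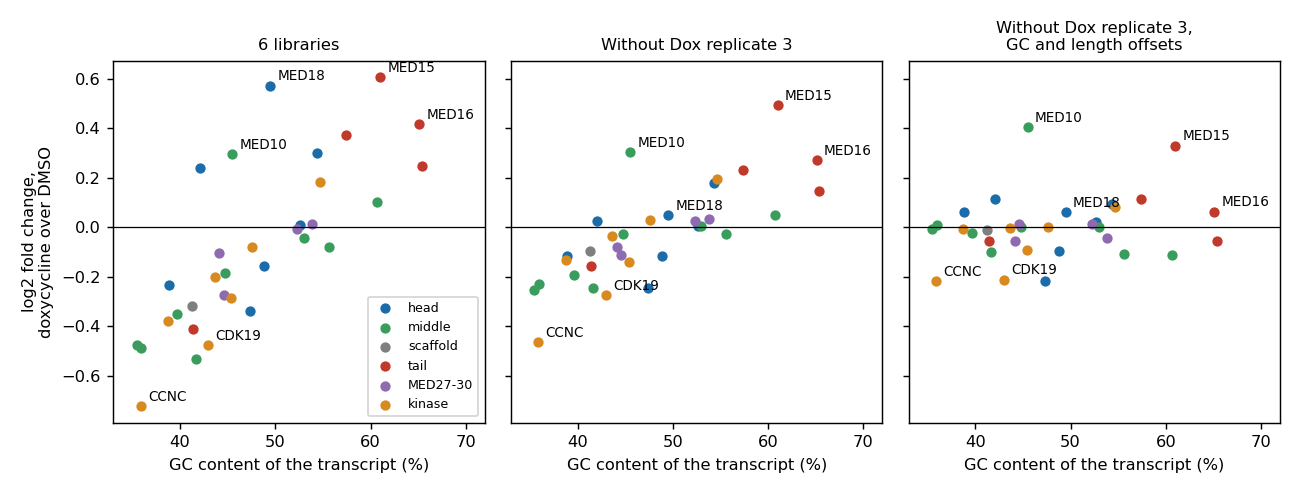
log2 fold change of each Mediator mRNA, doxycycline over DMSO, against the GC content of its reference transcript in percent: all 6 libraries (left), without doxycycline replicate 3 (middle), and without it with GC content and length as offsets (right), coloured by module. The Pearson correlation with GC content is 0.77 at left, 0.76 in the middle and 0.22 at right. At right the offsets take out the trend of all genes with GC content by construction. There MED15 at 0.33 and MED10 at 0.40 lie highest and CCNC and CDK19 at about -0.2 lie among the lowest.

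Ribosome footprints on Mediator mRNAs were few. Per Ribo-seq library there were 210186 to 1002424 reads on genes, and the 33 members together had 246 footprint reads against 582228 RNA-seq reads. There were 16 members with no footprint read, among them MED13, MED24, MED23 and CDK8, 12 members with 1 to 9 reads, and 5 with at least 10. A count of 0 allows up to 3 reads, or between 2.99 and 14.3 CPM by the depth of the Ribo-seq library, counting error only.

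The footprints of MED15 numbered 8, 0 and 1 with DMSO and 2, 0 and 31 with doxycycline, so 73.8% of them came from 1 library. MED1 was alike, with 4, 5 and 1 reads with DMSO and 1, 0 and 83 with doxycycline. MED6 had 3, 18 and 4 reads with DMSO and 3, 7 and 0 with doxycycline, and MED13L had 1, 5 and 6 against 4, 0 and 6. CCNC had 1, 9 and 0 reads with DMSO and none in any doxycycline library, where 3 reads over the group would still be allowed. All of these counts are small, and in MED15, MED1 and CCNC 1 library holds most of them.

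Translation efficiency, or TE, is the number of footprints relative to RNA-seq reads. Its change was tested as the interaction of assay and treatment over the 12 libraries. Of the 1334 genes with at least 10 reads summed in each assay, 0 were higher and 2 lower, which is 0 and 0.15% (100 higher and 178 lower at an unadjusted p under 0.05). DESeq2's Wald test called 35 higher (2.62%) and 47 lower (3.52%). No member passed in an alternative in which it was tested: between 1 and 5 members were tested in each, and 17 without the filter. DESeq2 gave no p-value for MED1. MED15 had a log2 change in TE of 1.33 with a standard error of 1.90 (edgeR adjusted p = 0.795), which was -2.21 without doxycycline replicate 3. MED1 went from 3.50 (edgeR adjusted p = 0.345) to -2.59 in the same way. Members with fewer than 10 footprint reads were not tested in the fit with the filter, and the size of change that these reads could show was not measured.

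Other parts of the transcription machinery were read from lists of genes that work with Mediator. Over the 6 libraries none of their genes passed edgeR's test, and the counts that follow leave out doxycycline replicate 3, where 3.38% of all genes were higher and 3.99% lower. Of the 12 subunits of RNA polymerase II, 0 rose and 1 fell: POLR2K, a small subunit shared by the 3 nuclear polymerases, by 0.43 (edgeR adjusted p = 0.0165). Of the 18 general transcription factors 0 rose and 4 fell, with GTF2A2 at -0.39 (edgeR adjusted p = 0.0273) and GTF2A1 at -0.38 (edgeR adjusted p = 0.0107), the genes of TFIIA, in front. Of the 13 TFIID subunits 1 rose, TAF6 (0.26, edgeR adjusted p = 0.0469), and 1 fell, TAF9 (-0.34, edgeR adjusted p = 0.0363).

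Of the 21 genes for pausing and elongation 5 rose and 1 fell. NELFA, a subunit of the pausing factor NELF, rose by 0.30 (edgeR adjusted p = 0.0263), and ELL2, an elongation factor, fell by 0.31 (edgeR adjusted p = 0.0355). Of the 12 chromatin coactivators and loaders 1 rose, CREBBP, a histone acetyltransferase (0.25, edgeR adjusted p = 0.0414), and none fell. Scaled by library totals, again without doxycycline replicate 3, the counts of higher and lower genes were 8 and 0 for pausing and elongation, 3 and 0 for the coactivators, 1 and 0 for TFIID, 0 and 2 for the general factors and 1 and 1 for RNA polymerase II, beside 7.02% and 1.64% of all genes.

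The GC content of the named genes differed: POLR2K has 35.7%, GTF2A1 35.7% and ELL2 38.9%, and TAF6 has 60.2% and NELFA 59.8%. GC-rich genes of the lists also lay near 0 without doxycycline replicate 3, such as POLR2H (60.2%, a log2 fold change of -0.01) and POLR2I (60.3%, -0.02). With GC content and length as offsets, and without doxycycline replicate 3, GTF2A1 was at -0.17 (edgeR adjusted p = 0.0286). POLR2K, GTF2A2, TAF6, TAF9, NELFA, ELL2 and CREBBP did not pass in that fit. Over the whole lists, pausing and elongation then had 3 genes higher and 0 lower, the coactivators 1 and 1, and RNA polymerase II 1 and 0. The general factors had 0 and 1 and TFIID 0 and 0, beside 1.98% and 1.86% of all genes. The medians of the lists without offsets were -0.02 for RNA polymerase II, -0.09 for the general transcription factors, -0.02 for TFIID, 0.06 for pausing and elongation and 0.00 for the coactivators, beside -0.03 for the 33 Mediator members and -0.01 for all genes.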

How the data were processed

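Counts of 6 RNA-seq and 6 Ribo-seq libraries of 1 cell line were used. The raw counts per gene were deposited by the authors, who mapped reads with STAR and counted unique alignments on exons. The methods name GRCh38 for mapping and GRCh37 for annotation, and the submitters' processing notes name GRCh37; whether strand was used is not given in the sources used here. The table holds 58735 human genes, of which 58207 (99.1%) matched GENCODE release 44, the source of coordinates, lengths and GC content. Rows for 92 ERCC spike-ins, 89 viral or unknown features and 5 counters of reads without a gene were left out. The counters held 69.1% to 94.1% of RNA-seq counts and 97.1% to 99.1% of Ribo-seq counts. From the deposited TE table only identifiers and symbols were read: its other columns hold the authors' ratios, p-values and log2 changes and were not used.

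Each assay was scaled with TMM factors (edgeR 4.0.16, limma 3.58.1, R 4.3.3). RNA-seq was tested with edgeR's quasi-likelihood test on the 20552 genes that had 10 reads or more in 3 of the 6 libraries, and TE as an interaction over 12 libraries on genes with at least 10 reads per assay, with Benjamini-Hochberg adjustment at 0.05. The exact permutation test, two-sided, served for single values. Alternatives were DESeq2 1.42.0 (its size factors and Wald test), library totals, other filters (none, or 60 reads), limma-voom with sample weights, a replicate block and each library left out. TMM factors after the filter, GC and length offsets, and GC offsets and library totals without doxycycline replicate 3 were added after seeing the data. The offsets came from a lowess fit (span 0.3) in each library. On simulated counts with 200 changed genes the RNA-seq test of 6 libraries recovered 0 at 1.4-fold and 172 at 2-fold; without doxycycline replicate 3 it recovered 196 and 200. Calls on unchanged genes numbered 0 and 8 with 6 libraries and 23 and 21 without that replicate. Without it, false calls were thus a larger share of all calls than the threshold of 0.05 allows. The edgeR calls on members all come from fits without that replicate.

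The members, lists and tests were chosen with earlier results of these data known. Named are MED15, the largest rise and fall of each module, members called with or without doxycycline replicate 3, the kinase module, the highest and lowest member, members with at least 10 footprints, and up to 2 called genes per direction and list; members outside this rule were chosen after their values were seen. One gene that the rule would name is not reported here. Summaries and figures used Python 3.11.15, numpy 2.4.6, scipy 1.17.1, pandas 2.3.3 and matplotlib 3.10.9.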

Additional observations from a re-analysis of the deposited data

How the results depend on the processing

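Leaving out doxycycline replicate 3 changed the RNA-seq calls: 2 members were then higher and 3 lower, with 694 and 819 among all genes, and MED15 passed at a log2 fold change of 0.49. Leaving out any of the other 5 libraries called 0 members. limma-voom with sample weights, which weighted that replicate least, called 7 members higher (21.2%) and 6 lower (18.2%), with MED15 at 0.57. It also called 3407 genes higher and 3554 lower among the 20552 tested, so calls were frequent among all genes too. DESeq2's Wald test called 1 gene higher and 2 lower. GC and length offsets without that replicate gave 2 members higher and 3 lower (406 and 382 genes) and MED15 at 0.33, and library totals without it gave 6 and 1 (1443 and 338 genes) and MED15 at 0.56. Library totals, DESeq2's size factors, the minimum of 60 reads, no filter, TMM factors after the filter and GC and length offsets on 6 libraries called 0 members and 0 genes.

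The replicate block also called 0 members, with a median of -0.11. Deviations of same-numbered libraries from their group means correlated at 0.60, -0.66 and 0.04. Doxycycline replicate 3 entered the mean of its group, so these values cannot decide whether the numbers pair the samples.

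Over the leave-one-out fits the median log2 fold change ranged from -0.15 to -0.03 for all members, from -0.0027 to 0.040 for the head, from -0.27 to -0.03 for the middle, from -0.47 to -0.10 for MED14, from 0.23 to 0.49 for the tail, from -0.10 to -0.03 for MED27 to MED30 and from -0.38 to -0.13 for the kinase module. For MED15 it ranged from 0.49 to 0.71, and relative to the other members from 0.54 to 0.88, or 0.47 with the tail as reference. With library totals the medians were 0.037 for all members, 0.15 for the head and 0.085 for MED27 to MED30; without doxycycline replicate 3 they were 0.037 for all members, 0.073 for the head, 0.037 for the middle, 0.039 for MED27 to MED30 and -0.067 for the kinase module. With GC and length offsets they were 0.16 for the head, 0.00087 for the tail and -0.0037 for MED27 to MED30; without doxycycline replicate 3 they were -0.0019 for all members, 0.062 for the head, 0.063 for the tail and -0.0078 for the kinase module. The head was at 0.049 with DESeq2, 0.053 with TMM factors after the filter and -0.016 with MED19, the tail at 0.014 with MED27 to MED30, and these 4 at -0.00027 with limma-voom. The causes were not tested.

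The sign of 8 members turned with GC and length offsets, of 9 with these offsets without doxycycline replicate 3, of 5 with library totals, of 6 with library totals without that replicate, of 3 with limma-voom, of 3 without that replicate and of at most 2 in each other alternative. With GC and length offsets MED21 was at 0.040, MED25 at -0.15, MED26 at -0.19, MED28 at 0.026, MED7 at 0.037, MED29 at -0.099, MED4 at 0.0039 and MED6 at 0.19; without doxycycline replicate 3 as well, MED13L was at 0.0029, MED25 at -0.055, MED29 at -0.042, MED30 at 0.013, MED4 at 0.0093 and MED6 at 0.062. MED13L was at 0.052 with library totals, 0.053 with limma-voom, 0.095 with library totals without doxycycline replicate 3, and -0.15 to 0.029 over the leave-one-out fits. With library totals and without that replicate MED1 was at 0.040 and MED12L at 0.030, and MED29 ranged from -0.013 to 0.035 with 1 library left out. With 1 replicate left out, the log2 change in TE ranged from -2.59 to 4.17 for MED1, from -2.21 to 4.39 for MED15 and from -0.76 to 0.86 for MED13L, each lowest without doxycycline replicate 3, and from -1.89 to 0.37 for MED6. On simulated counts the 6-library test recovered 0 of 200 genes changed 1.4-fold. Those counts held no outlying library and no trend with GC content, so the reach of the test in these data was not measured.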
